A study of Mus musculus with 2 samples.

Results

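Processed pseudogenes were examined in libraries of total RNA from the mouse hippocampus, a region needed for spatial and episodic memory. A gene was taken as a member when every one of its annotated transcripts carried the biotype processed pseudogene, which held for 9940 of the 55536 annotated genes, or 17.9%. The rule used the annotation only and no measured value. All members had 1 transcript, and 90.4% of them had 1 exon. The tissue came from female B6CASTF1/J mice aged 2 months, the F1 offspring of a cross between C57BL/6J, the strain of the reference genome, and CAST/EiJ, an inbred strain of wild castaneus origin. A pair of libraries was made, each from 300 ng of RNA with ERCC spike-in RNAs, called biological replicates 1 and 2, and both belong to 1 group with no further treatment named. Each replicate has its own tissue record but the donor record is shared, so the spread between the libraries may be partly technical. With 1 group there was no contrast between conditions, and levels are given for both libraries or as mean ± SD (n = 2).

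A processed pseudogene arises when a messenger RNA is copied back into DNA by reverse transcriptase, supplied in mammals by LINE-1 elements, and inserted elsewhere in the genome. The copy carries the spliced sequence of its source gene without introns and usually lacks a promoter. Genes that are strongly transcribed in the germ line, such as those for ribosomal proteins and glycolytic enzymes, have left many such copies. Because a copy can be nearly identical to its source, a short sequencing read may match both, and software then divides the read between them.

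Replicate 1 held 29490900 expected counts on annotated genes, of which 101383 lay on processed pseudogenes. Replicate 2 held 30691917, of which 107656 lay on them. Of the 34 genes in 11 marker lists of hippocampal cell types and fields, 33 reached 1 TPM (transcript abundance per base, scaled to the library total) in both libraries. The exception was Folr1, a choroid plexus marker, at a mean of 0.78 TPM. The summed choroid plexus markers were 127 TPM in replicate 1 and 70.2 TPM in replicate 2, and those of blood were 226 and 408 TPM. Their part in the values below was not tested.

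Each member was aligned to the transcripts of protein-coding genes, and its best match with at least 80% identity over at least 50% of the member is called its aligned coding gene. Such a gene was found for 7765 members, or 78.1%, and it names the closest coding sequence rather than a proven source. Each member was also cut into every possible window of 100 bases, the read length, and a window that occurred in no other annotated transcript is called its own. At least 50% of windows were a member's own in 8869 members, and no window was in 311. A further 36 members were shorter than a read.

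The sequences below show what this means for a read. Each is 100 bases of a member, read 5′ to 3′ on the member's strand, beside the same stretch of the coding sequence of its aligned gene, with differing bases in capitals. For each member the window with the most differences was taken, with at most 2 differences in any 10 bases so that alignment gaps stayed out. The first set shows 3 copies of Gapdh, the glycolytic enzyme glyceraldehyde-3-phosphate dehydrogenase, whose gene lies on chr6:125161715-125166467 of GRCm38 (the mm10 assembly), minus strand. The window of Gm12070 is at chr11:26786993-26787092, plus strand, and differs from Gapdh at 1 of 100 bases. Gm12671 (chr4:91852210-91852309, minus strand) and Gm10359 (chr5:105863243-105863342, minus strand) have 0 differences from Gapdh there and are identical to each other over their whole 1002 bases.
Gapdh: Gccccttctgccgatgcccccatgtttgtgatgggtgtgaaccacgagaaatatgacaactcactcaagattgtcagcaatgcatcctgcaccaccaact
Gm12070: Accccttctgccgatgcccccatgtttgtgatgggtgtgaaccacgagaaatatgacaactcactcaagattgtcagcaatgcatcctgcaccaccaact
The second set shows Gm10123, the member with the highest level of those long enough to be ranked, with its window at chr9:96895853-96895952, plus strand. It matched Ppia, the gene of the peptidyl-prolyl isomerase cyclophilin A, at 100% over its whole length, so 1 line stands for both.
Gm10123 and Ppia: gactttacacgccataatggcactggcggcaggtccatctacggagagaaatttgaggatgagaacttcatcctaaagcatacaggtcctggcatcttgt
The third set shows Gm15459 (chr5:5782334-5782433, minus strand), the member with the most counts, beside Hspa8, which encodes the constitutive 70 kDa class heat shock chaperone.
Hspa8: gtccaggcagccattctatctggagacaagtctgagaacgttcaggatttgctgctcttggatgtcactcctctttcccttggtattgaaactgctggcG
Gm15459: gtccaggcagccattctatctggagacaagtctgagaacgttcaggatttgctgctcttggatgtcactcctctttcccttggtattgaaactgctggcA
The last set shows members that a read can tell apart over most of their length. Rps15-ps2 (chr6:58017664-58017763, plus strand) is beside Rps15, a protein of the small ribosomal subunit, and has 6 differences in the window. Gm13050 (chr4:143243044-143243143, minus strand) is beside Eef2, which moves the ribosome along the messenger RNA, and has 5. Gm6548 (chr17:78850890-78850989, minus strand) is beside Eef1a1, which brings aminoacyl-tRNA to the ribosome, and has 7.
Rps15: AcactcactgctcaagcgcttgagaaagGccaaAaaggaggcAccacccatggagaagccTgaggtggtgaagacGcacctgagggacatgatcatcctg
Rps15-ps2: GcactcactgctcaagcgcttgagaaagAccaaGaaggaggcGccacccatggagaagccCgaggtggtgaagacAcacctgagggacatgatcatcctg
Eef2: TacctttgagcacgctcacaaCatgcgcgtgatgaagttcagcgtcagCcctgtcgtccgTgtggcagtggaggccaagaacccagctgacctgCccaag
Gm13050: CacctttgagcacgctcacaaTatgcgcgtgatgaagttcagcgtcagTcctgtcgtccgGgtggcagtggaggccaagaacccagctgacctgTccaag
Eef1a1: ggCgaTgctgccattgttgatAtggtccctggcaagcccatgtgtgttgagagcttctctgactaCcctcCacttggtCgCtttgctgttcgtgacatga
Gm6548: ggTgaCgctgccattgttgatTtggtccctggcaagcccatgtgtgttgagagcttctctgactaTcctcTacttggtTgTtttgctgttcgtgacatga

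Most processed pseudogenes were assigned no reads. In both libraries 7397 members, 74.4%, were at 0 counts, beside 49.7% of all annotated genes. A count of 0 allows up to 0.102 CPM (counts scaled to the library size) in replicate 1 and 0.0978 CPM in replicate 2. That covers counting error only and not the division of reads between genes. Rps12l1, at 0 counts in replicate 1, had a deposited TPM interval reaching 11.1 TPM. At 1 TPM or more in both libraries 497 members were detected, which is 5.0%, beside 26.8% of all annotated genes and 58.0% of protein-coding genes of the nucleus. Of the detected members, 151 reached 10 TPM in both libraries and 13 reached 100 TPM. Their median was 4.92 TPM, beside 14.6 TPM for detected protein-coding genes. All members together took 0.347% ± 0.00494 (SD, n = 2) of counts on annotated genes. The 10 members with the most counts held 28.2% ± 0.0177 of the members' counts and the 100 with the most held 70.8% ± 0.015. On the Y chromosome, which these female animals lack, the 91 members had 0 counts in both libraries.

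The share of members detected was higher the closer they were to a coding gene. Of 3301 members with 80% to under 90% identity to their aligned coding gene, 38 were detected, or 1.15%. The share was 2.09% of 2148 members at 90% to under 95%, 5.91% of 1320 at 95% to under 98%, and 15.2% of 446 at 98% to under 99%. Of 550 members at 99% or more, 242 were detected, or 44.0%. These 550 members held 68.3% ± 0.348 (SD, n = 2) of all counts on members. The median identity was 99.1% for the detected members with an aligned gene and 90.8% for those not detected. This is a description across genes, which are not replicates, and several of them share an aligned gene.

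**Figure D1:**
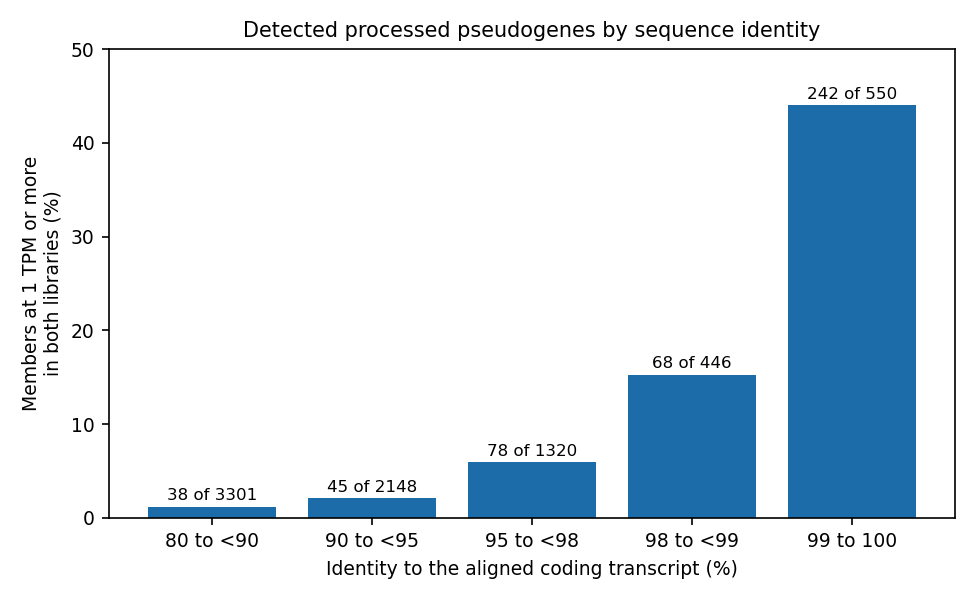
Share of processed pseudogenes at 1 TPM or more in both libraries (vertical axis, percent) by identity to the aligned coding transcript (horizontal axis, percent), with the number detected and the number in each class above the bars. The share is 1.15% in the lowest class and 44.0% in the highest.

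Members with fewer windows of their own were detected more often. Among the 311 members with no window of their own, 76 were detected, or 24.4%, with a median of 20.8 TPM. Among the 724 with some own windows but under 50%, 161 were detected, or 22.2%, with a median of 7.36 TPM. At 50% to under 100% own windows 162 of 2025 were detected, or 8.0%. Of 6844 members whose windows were all their own, 98 were detected, or 1.43%, with a median of 2.03 TPM. Members with under 50% own windows held 0.257% ± 0.00374 of all counts on annotated genes, and those with at least 50% held 0.0899% ± 0.0012. The level of the aligned gene moved with detection within both classes. With under 50% own windows, 7.56% of 291 members were detected where the aligned gene was under 10 TPM and 33.5% of 260 where it was at 100 TPM or more. With at least 50% own windows, the shares were 1.92% of 1408 and 4.1% of 2290.

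Fractional counts, which arise where a read is divided between genes, were common among members. A count within 0.005 of a whole number in both libraries was found for 86 of the 497 detected members, or 17.3%. The same held for 84.9% of detected protein-coding genes of the nucleus. The tables also give a posterior SD, the software's own uncertainty of a count, which does not include differences between animals. For members at a mean of 1 CPM or more its median was 4.0% of the count with at least 50% own windows and 12.6% with fewer. For protein-coding genes of the nucleus it was 0%.

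Ranked by level at an effective length of 200 bases or more, the 20 highest members were all close copies of housekeeping genes, and none of their levels in the gene tables differed between libraries by a factor of 1.5. In the second quantification that the authors deposited, 11 of the 20 were under 0.001 counts in both libraries: Gm10123, Rps23-ps1, Atp6v0c-ps2, Rpl31-ps8, Rpl28-ps1, Rpl36a-ps2, Ndufb4c, Gm10288, Gm10221, Tpt1-ps3 and Gm11518. The levels that follow are those of the gene tables. Gm10123 (490 bases, chr9:96895658-96896147) stood at 317 TPM in replicate 1 and 326 TPM in replicate 2, beside 649 and 621 TPM for Ppia. Rps23-ps1 (425 bases, chr3:37714740-37715164) stood at 291 and 326 TPM, above Rps23, a small ribosomal subunit gene, at 90.9 and 88.5 TPM. It is 100% identical to Rps23 and has no window of its own. Gm15459 (1941 bases, chr5:5781615-5783555) had 7940 and 8662 counts, or 199 and 208 TPM, beside 814 and 833 TPM for Hspa8. It is 99.7% identical and 17.7% of its windows are its own. Of these 3 members, only Rps23-ps1 was above its coding gene.

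Copies of ribosomal protein genes made up much of the rest of that list. Rps2-ps13 was at 173 and 169 TPM, above Rps2 at 120 and 118 TPM. Gm7536 was at 158 and 154 TPM, above Rpl27a, a protein of the large subunit, at 61.2 and 55.7 TPM. By counts Gm7536 was below, with 1184 and 1199 beside 1304 and 1272 for Rpl27a. Rpl36a-ps2 was at 107 and 110 TPM, above Rpl36a at 47.5 and 53.5 TPM. Below their coding genes stood Rpl31-ps8 at 155 and 167 TPM beside 207 and 214 TPM for Rpl31, and Rpl28-ps1 at 162 and 155 TPM beside 179 and 181 TPM for Rpl28. Rpl3-ps1 was at 132 and 139 TPM, beside 217 and 218 TPM for Rpl3. In all, 29 of the 471 detected members with an aligned coding gene were above it in both libraries, and 254 were above 10% of it.

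Other high members copied genes for the proton pump, the respiratory chain, tubulin and signalling adaptors. Atp6v0c-ps2 matched Atp6v0c, a membrane subunit of the vacuolar proton pump, and stood at 174 and 177 TPM beside 445 and 420 TPM. Gm14150 matched Tuba1b, an alpha-tubulin, at 98.6% and stood at 98.4 and 98.96 TPM beside 192 and 182 TPM. Ndufb4c matched Ndufb4, an accessory subunit of respiratory complex I, at 100% and stood at 91.8 and 85.6 TPM, above Ndufb4 at 28.9 and 36.98 TPM. Gm4202 matched Ywhaz, a 14-3-3 adaptor protein, and stood at 73.4 and 84.5 TPM beside 513 and 508 TPM. Morf4l1-ps1 matched Morf4l1, a chromodomain protein of histone-modifying complexes, and stood at 82.8 and 73.2 TPM beside 167 and 168 TPM. Among shorter members, whose TPM rests on few start positions, Gm12338 (192 bases) stood at 311 and 304 TPM. Cox7c, a subunit of cytochrome c oxidase, was lower in TPM, at 136 and 128. By counts Gm12338 was below it, with 627 and 639 beside 1291 and 1246. In the second quantification Gm12338 was listed at 0 in both libraries.

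**Figure D2:**
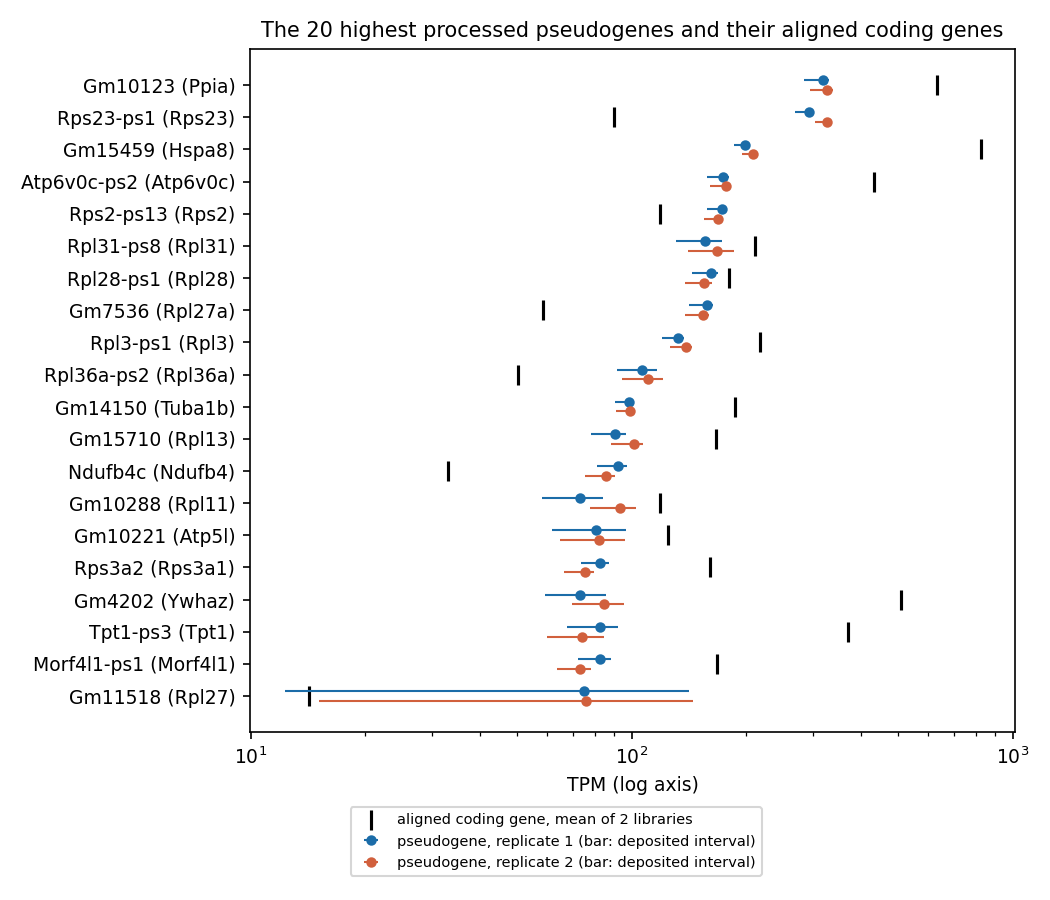
Levels in TPM (horizontal log axis) of the 20 highest processed pseudogenes with an effective length of 200 bases or more, with the aligned coding gene in brackets. Points are the 2 libraries, bars are the interval deposited with each value, and black ticks are the mean of the coding gene. The bars are short apart from those of Gm11518, and the ticks of Rps23, Rps2, Rpl27a, Rpl36a, Ndufb4 and Rpl27 lie to the left of their copies.

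The lowest of these 20, Gm11518, has whole-length twins. Its 411 bases are identical to those of Rpl27-ps3 on chromosome 18 and to Rpl27, a large-subunit protein. Gm11518 and Rpl27-ps3 were given 507.29 counts each in replicate 1 and 535.71 each in replicate 2, or 74.9 and 76.0 TPM, beside 15.6 and 12.8 TPM for Rpl27. The posterior SD of Gm11518 was 271 counts in replicate 1 and 279 in replicate 2, more than 50% of the count. In all, 116 members share their whole sequence with another member, and 12 of them were detected.

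Grouped by aligned gene, the largest families listed were ribosomal proteins with 1881 copies, Gapdh with 204, and the HMG chromatin proteins and the nuclear-encoded respiratory chain with 184 each. The 7765 members with an aligned gene fell on 2380 coding genes, of which 1453 had 1 copy and 57 had 20 or more. Those 57 genes had 2576 copies, and 101 of these were detected. The lists of coding families were chosen with earlier results of these data known, and their counts are descriptions. Of 1881 copies of ribosomal protein genes, 106 were detected, or 5.64%, and the whole family held 30.9% ± 0.0689 of the members' counts. Of 204 copies of Gapdh 7 were detected, led by Gm12070 at 21.6 and 8.91 TPM beside 979 and 952 TPM for Gapdh itself. Of 184 copies of HMG genes, which bend DNA, 4 were detected. The highest, Gm15387, stood at 68.1 and 70.8 TPM, above Hmgb1 at 57.4 and 55.8 TPM. By counts Gm15387 was below, with 812 and 878 beside 2481 and 2613 for Hmgb1. In the second quantification Gm15387 was listed at 0 in both libraries. Of 66 copies of Ppia, only Gm10123 was detected. All members had a share of 5.0% detected, so the share was near that of all members for ribosomal proteins and below it for Gapdh, HMG genes and Ppia.

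Among families of fewer copies the shares lay on both sides of that of all members. Detected were 4 of 21 copies of Eef1a1, 5 of 27 copies of cytoplasmic actin genes and 4 of 21 tubulin copies. The tubulin copies held 4.57% ± 0.11 of the members' counts. Of 63 heat shock copies 2 were detected, and they and the others of the family held 8.44% ± 0.122, most of it on Gm15459. Of the 184 respiratory chain copies 15 were detected. Of 13 members aligned to genes of the mitochondrial genome 0 were detected, and mt-Co1, a subunit of cytochrome c oxidase, stood at 5879 and 6121 TPM. The highest of them, Gm11512, was 90.7% identical to mt-Co1, had 100% of windows of its own and stood at 0.16 and 0.08 TPM. Of 8 copies of peroxiredoxin genes 0 were detected. With as few as 13 and 8 copies, 0 detected cannot be told apart from the share of all members.

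The highest copies of 4 other families ranged in identity from 81.1% to 100%. Fth-ps2, a copy of the ferritin heavy chain gene Fth1, was 81.1% identical with 100% of windows of its own. It lay on the strand of Braf, a kinase gene at 52.9 and 50.03 TPM, and stood at 3.65 and 2.44 TPM, beside 1272 and 1332 TPM for Fth1. Gm5881, a copy of the calmodulin gene Calm3, was 96.2% identical and stood at 4.14 and 5.95 TPM beside 824 and 810 TPM. Gm10241, 100% identical to Sumo2, which encodes a small ubiquitin-like modifier, stood at 42.2 and 51.5 TPM beside 125 and 124 TPM. Gm8203, 100% identical to the histone variant gene H2afz, stood at 42.6 and 44.9 TPM beside 54.3 and 55.4 TPM.

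Members that a read can tell apart over most of their length included some whose counts were close in the 2 libraries, though not always in the second quantification. Among those with at least 50% own windows, 260 were detected. Rps15-ps2 (438 bases, 94.99% own windows) stood highest, at 58.5 and 56.6 TPM with 430 and 434 counts and a posterior SD of 3.16 and 3.24 counts. Rps15 was at 360 and 362 TPM. In the second quantification Rps15-ps2 was listed at 0 in both libraries. Gm8399 (1117 bases, 58.9% own windows), a copy of the gamma-actin gene Actg1, had 1201 and 1276 counts, or 54.3 and 55.5 TPM, and 643 and 652 counts in the second quantification. Gm6548, a copy of Eef1a1 with 100% own windows, had 554 and 600 counts, or 24.0 and 24.9 TPM, beside 1225 and 1296 TPM for Eef1a1. Gm13050, a copy of Eef2 with 99.8% own windows, had 498.97 and 522 counts, or 18.4 and 18.5 TPM, and 404 and 358 counts in the second quantification. The posterior SD of Gm6548 was 6.94 and 7.20 counts and that of Gm13050 was 5.88 and 5.50 counts.

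Some copies of metabolic genes belonged to the same class, and they are named here after their values were seen. Glns-ps1, a copy of the glutamine synthetase gene Glul with 94.4% own windows, had 439 and 521 counts. Gm1840, a copy of the glucose-6-phosphate isomerase gene Gpi1 with 89.7% own windows, had 602 and 540 counts. A member without an aligned coding gene, Pabpc1l2b-ps on the X chromosome, had 770 and 840 counts, or 60.01 and 62.9 TPM, with 29.9% own windows. At the short end, Gm10060, at 111 bases barely longer than a read, reached 46.8 TPM on 12.18 counts in replicate 1 and 7.51 TPM on 2.04 counts in replicate 2, so its TPM is not a firm level.

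Position in the genome separated a further group. Of the members, 1029 lay inside the body of a protein-coding or long non-coding gene on the same strand, 1662 lay inside such genes only on the opposite strand, and 7249 lay in neither. Detected were 132 of the first, or 12.8%, 67 of the second, or 4.03%, and 298 of the third, or 4.11%. Among members whose windows were all their own, 66 of 687 on the same strand were detected, or 9.61%. The numbers were 3 of 1158, or 0.259%, on the opposite strand and 29 of 4999, or 0.58%, in neither. Of those on the same strand with a host at 10 TPM or more, 58 of 232 were detected, or 25%. With a host under 1 TPM the number was 4 of 304, or 1.32%. Of the 26 detected members with no aligned coding gene, 21 lay on the same strand as a host. The sources used here do not give whether the authors' counting used strand.

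These 66 members were low and overlapped no exon of another such gene on their strand. Their median level was 1.82 TPM and their median was 5.62% of the host's level. Above their host stood 4 of the 66, and the hosts of all 4 were at 0 TPM in both libraries. An example is Gm5802, at 2.53 and 2.80 TPM inside Gm4131. The examples that follow are among those with the most counts. Gm15712 (chr16:43184573-43185728) had 53 and 81 counts, or 2.31 and 3.39 TPM, inside Zbtb20, a zinc finger repressor needed for hippocampal CA1 identity, at 121 and 138 TPM. Gm13689 (chr2:80549712-80550396) had 51 and 73 counts inside Nckap1, a subunit of the actin-regulating WAVE complex, at 205 and 212 TPM. Gm15665 (chr16:37212918-37213764) had 49 and 52 counts inside Stxbp5l, a syntaxin-binding protein gene, at 55.5 and 59.1 TPM. Counts of these members and unspliced RNA of the host cannot be told apart in these tables.

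The libraries were compared by the log2 ratio of replicate 2 to replicate 1, from counts with 0.5 added, scaled to library size by TMM factors. At a mean of 1 CPM or more, 17 of 345 members differed by 1 or more in size, or 4.93%, beside 0.516% of all genes measured at that level. The median size of the ratio was 0.19 for members and 0.08 for all genes, and the median level was 3.63 and 17.3 CPM. Of the 17 members, 16 had under 50% own windows, as did 201 of the 345 compared. The TPM intervals of the 2 libraries overlapped for 16 of the 17, Gm10039 being the exception. The median posterior SD of the 17 was 43.1% of the count. With 1 library against 1 library there is no test, and in bulk tissue the number of cells of a type and the RNA per cell cannot be told apart. At 5 CPM or more, 4 of 138 members differed by 1 or more, and in the second quantification 9 of 282 did.

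**Figure D3:**
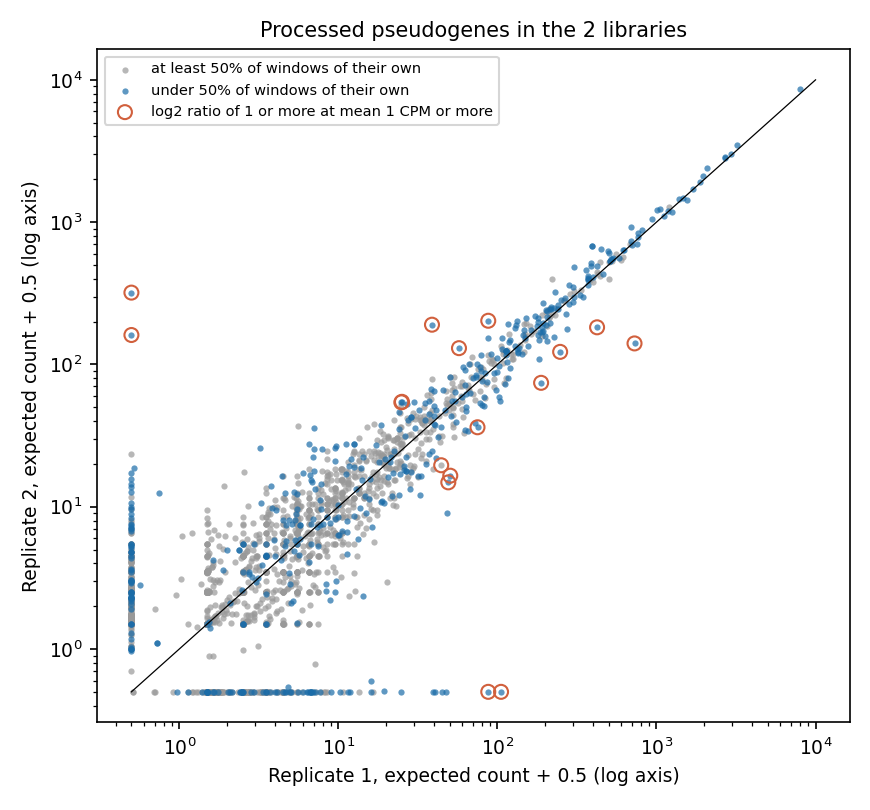
Expected counts plus 0.5 of processed pseudogenes with any count in replicate 1 (horizontal log axis) and replicate 2 (vertical log axis). Grey points have at least 50% windows of their own and blue points fewer, and rings mark the 17 members with a log2 ratio of 1 or more in size at a mean of 1 CPM or more. Of the ringed points 16 are blue, and 4 lie on an axis at 0 counts.

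Several of these members differed in the opposite direction from a twin or another copy of the same gene. Gm12671 and Gm10359, the identical Gapdh copies shown above, had 87.07 counts each in replicate 1. In replicate 2 Gm12671 had 0 and Gm10359 had 202. Gm10163, a copy of the large-subunit gene Rpl21, had 727 counts in replicate 1 and 140 in replicate 2, with a posterior SD of 290 and 270 counts. The identical Rpl21 copies Gm10240 and Gm13370 had 391 counts each in replicate 1 and 684 each in replicate 2. All 102 Rpl21 copies together had 1583 and 1599 counts, and Rpl21 itself had 1520 and 1585. Of the copies of Ube2v2, a cofactor of ubiquitin conjugation, Gm6565 had 247 and 122 counts and Gm6361 had 38.3 and 189.7, while all 6 copies together had 299 and 319. Rps12l1 had 0 and 160 counts while its aligned gene Rps12-ps3, which is annotated as protein-coding despite its symbol, had 1063 and 868.

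The 17 members aligned to 14 coding genes. When each coding gene and all its aligned copies were added up, 0 of the 14 sums differed by 1 or more on the log2 scale, and the largest ratio was 0.18 in size. In each of the 14 sums the members called apart held too few of the counts for their own change to move it by 1. The 0 of 14 is therefore no check on them. In many of the sums the coding gene held most of the counts, as in that of Gapdh with 13696 and 13934 counts beside 1441 and 1235 on its 204 copies. In the sum of Rpl21 the copies held about as much as the gene. Even there Gm10163 had 727 and 140 counts in sums of 3103 and 3183. Gm11847 is a copy of Hnrnpa3, which encodes a nuclear RNA-binding protein, and its change was not offset by the other copies. It had 0 and 319 counts, and all 42 Hnrnpa3 copies together had 67.6 and 369, beside 7189 and 7832 on Hnrnpa3.

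**Figure D4:**
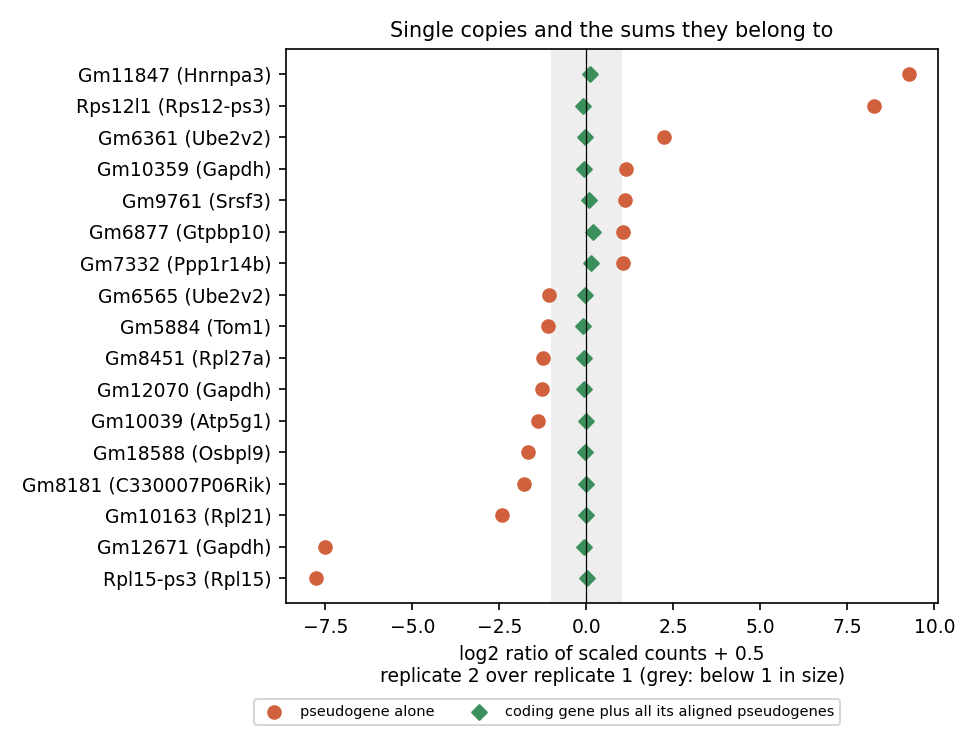
Log2 ratio of scaled counts with 0.5 added, replicate 2 over replicate 1 (horizontal axis), for the 17 processed pseudogenes called apart (circles) and for the sum of the aligned coding gene and all its copies (diamonds), 1 row a pseudogene with the coding gene in brackets. The grey band marks ratios below 1 in size, and all diamonds lie in it, at most 0.18 from 0. The circled members held too few of the counts of each sum for their own change to move it by 1. The 4 circles beyond 7 in size have 0 counts in a library and depend on the 0.5 added.

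A few members differed between the libraries and had TPM intervals that did not overlap, among those with a mean of at least 50 counts and 1 TPM. Gm9616, a copy of the small-subunit gene Rps4x with 64.2% own windows, stood at 14.9 and 25.7 TPM, with 221 and 396 counts and a log2 ratio of 0.78. Gm10039, a copy of Atp5g1, which encodes the ring subunit of ATP synthase, stood at 27.7 and 10.5 TPM, with a log2 ratio of -1.4 and 8.65% own windows. Rps23-ps1, described above, had a log2 ratio of 0.16. These 3 were all that met the rule. The coefficient of variation between libraries, from edgeR's common dispersion, was 17.6% over 555 members and 4.26% over 14297 protein-coding genes of the nucleus. It was 9.9% over the 318 members with at least 50% own windows and 21.8% over the 237 with fewer. That last order turned with DESeq2's final dispersions, whose medians gave 38.1% and 20.7%. Those are values pulled toward a trend with mean count, not the spread of each gene alone.

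The authors also deposited a second quantification of both libraries, and the members' levels depended on which of the 2 was read. In the second quantification 509 members were at 1 TPM or more in both libraries. Detected in both quantifications were 259 members, which is 52.1% of the 497 and 50.9% of the 509. The TPM scales differ, so 1 TPM is not the same level in both. Actg1 had 20163 and 20672 counts, or 509 and 502 TPM, in the gene tables. In the second it had 20210 and 20600 counts, or 941 and 933 TPM. The overlap therefore mixes a difference of scale with differences in assigned counts. At 1 CPM or more in either quantification, 460 members were compared with 0.5 CPM added. Of these, 175 were lower in the second by 1 or more on the log2 scale in both libraries, or 38.0%, beside 2.07% of all genes compared. A further 110, or 23.9%, were higher by that much, beside 7.39% of all genes. The median log2 ratio, second over first, was -0.42 for members and 0.1 for all genes.

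Length went with the first group. All 23 compared members under 300 bases were lower in the second quantification, as were 77 of 97 at 300 to under 500 bases, 48 of 133 at 500 to under 1000 bases and 27 of 207 at 1000 bases or more. Protein-coding genes of the nucleus at 300 to under 500 bases were lower in 24 of 94 cases, and at 1000 bases or more in 13 of 12968. In the second quantification 0 of 7238 transcripts under 200 bases, of any kind, had a count above 0 in either library. Its effective lengths were shorter than the transcript by a median of 337 bases in replicate 1 and 339 in replicate 2 for transcripts of 1000 bases or more, and those of the gene tables by 99 bases. Of the 497 detected members, 174 were listed at 0 in both libraries of the second quantification, and 56 of these were under 300 bases.

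**Figure D5:**
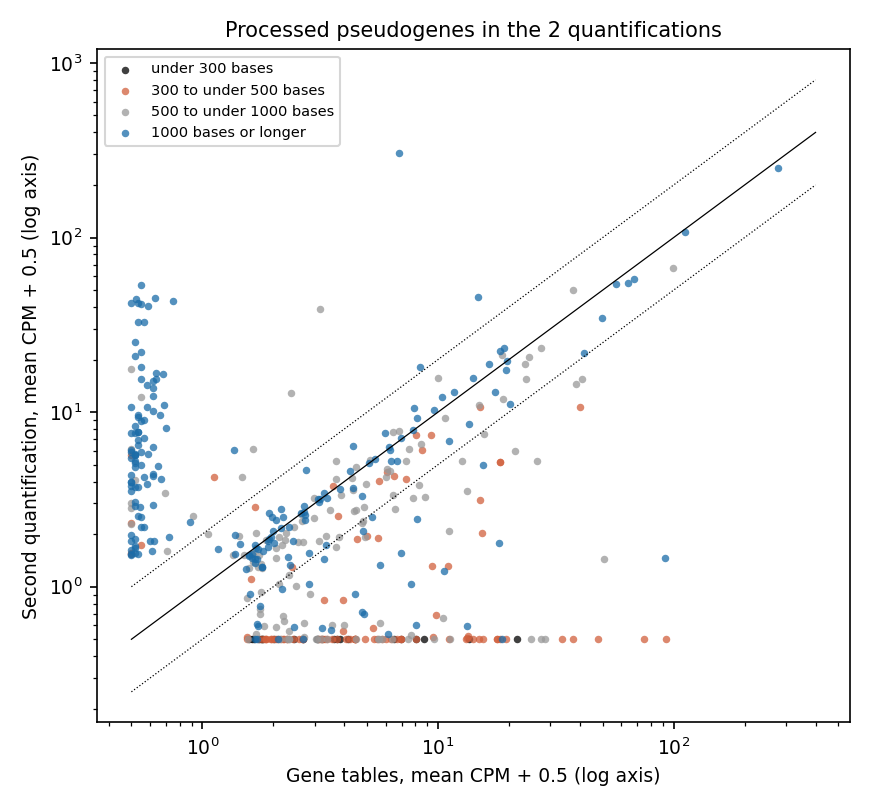
Mean CPM plus 0.5 of the 460 compared processed pseudogenes in the gene tables (horizontal log axis) and in the second quantification (vertical log axis), coloured by length, with the line of equality and dotted lines at a factor of 2. Points along the bottom are listed at or near 0 in the second quantification and are mostly members under 500 bases. Points along the left edge are members of 1000 bases or longer in most cases.

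Members of 500 bases or more differed between the quantifications in both directions. At that length 10 of 24 members with no own window were lower in the second quantification and 2 were higher. With at least 50% own windows 26 of 197 were lower and 70 higher. Gm14150 (1354 bases) had 2682 and 2808 counts in the gene tables and 31.3 and 27.6 in the second quantification. Morf4l1-ps1 (969 bases) had 1564 and 1440 counts, and 26.99 and 30.8 in the second. Against these, Gm15459 had 7940 and 8662 counts, and 7275 and 7898 in the second. Gm6548 had 554 and 600 counts, and 560 and 599 in the second, and Rps12-ps10 (399 bases) had 230 and 224, and 222 and 199 in the second.

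For some short copies listed at 0, the coding gene was higher by about as much. Gm10123 and Rps23-ps1 were both listed at 0 in the second quantification. Rps23 itself had 30.9 and 28.1 CPM in the gene tables and 102 and 108 CPM in the second. Rps23 and its 16 aligned copies together had 101 and 107 CPM in the gene tables and 102 and 108 CPM in the second. Ppia and its 66 copies together had 376 and 373 CPM, and 385 and 381 CPM in the second. Ndufb4 was otherwise: with its 4 copies it had 31.4 and 31.3 CPM in the gene tables and 17.4 and 18.7 CPM in the second. The 175 lower members aligned to 147 coding genes. The sum of the gene and its copies differed by 1 or more on the log2 scale in 4 of the 147. The median log2 ratio of these sums was -0.0083. In many of them the coding gene held most of the counts, so the loss of a copy could not move the sum by 1. An example is Grin2a, at 999.5 and 1080 CPM in the gene tables beside 1.83 and 2.07 CPM on its copy. Of the 110 higher members 95 aligned to 33 coding genes and 15 had no aligned coding gene. Of those 33 sums 12 differed by 1 or more.

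The members higher in the second quantification were of another kind. Of the 110, 100 had a mean under 10 counts in the gene tables, and their median length was 2062 bases. The best alignment of 49 of them was a transcript of Vmn2r79, a vomeronasal pheromone receptor gene that stood at 0.01 TPM in both libraries. Alignment was to whole transcripts, untranslated parts included, so the match does not make these members receptor copies. Which part of the transcript they matched was not examined. In all, 51 members aligned to Vmn2r79, at 85.9% to 93.7% identity and with a median length of 3829 bases. Together they had 105 and 109 counts in the gene tables and 19497 and 20725 in the second quantification. Gm48132 (chr10:50179151-50182994), the member with the largest log2 ratio, 6.59, had 2 and 1 counts and then 1499 and 1715. Gm48493 (chr13:16385919-16389759) had 0 counts in both gene tables and 1261 and 1278 in the second. By its counts a Gapdh copy, Gm7336, led this group: it had 225 and 154 counts in the gene tables and 9083 and 9562 in the second, with 0.265% own windows and 99.8% identity to Gapdh.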

How the data were processed

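Total RNA of the hippocampus was sequenced in 2 libraries. Per the file headers, the authors deposited a gene table per library with an expected count, a TPM value and a score, the bounds of a TPM interval and the posterior mean and SD of the count, in the layout of RSEM. A further deposited transcript table holds an estimated count and TPM in the layout of kallisto, summed here per gene as the second quantification. The accompanying notes name mm10 and GENCODE M21 and derive the gene tables from transcriptome alignments. No source used here names the software. The transcripts are those of the reference strain, and CAST/EiJ differences were not analysed here. Length minus effective length, 99 bases, was taken to mean reads of 100 bases.

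Members were genes whose transcripts all had the processed pseudogene biotype. Members and gene families were chosen with earlier results of these data known. Library sizes were the counts on 55536 annotated genes, and 26345 entries that name no annotated gene were left out. Sequences came from the GENCODE M21 transcripts. Aligned coding genes were found with BLAST 2.17.0 (megablast, plus strand). For the dispersions, expected counts were made whole by rounding, in edgeR 4.0.16 (TMM, common dispersion, minimum 10) and DESeq2 1.42.0. As 1 group was measured, no p-values were computed. Ratio calls were tested on simulated data: in a simulated pair of replicates, 99.5% of 200 genes given a log2 shift of 1.5 were called, beside 7 of 15280 others.

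Named members were the 20 highest by TPM at an effective length of 200 bases or more and up to 5 in each direction between libraries with separate intervals. The 10 furthest apart in each direction between quantifications at 50 counts or more, the 10 highest with at least 50% own windows, the 5 highest with a -ps symbol and the highest of each family were also taken. Others are said to be chosen after their values were seen, or are the 17 members called apart and their twins. Other detection minimums, scalings, filters, identity limits, window lengths, either replicate alone and the second quantification were tried. R 4.3.3, Python 3.11.15, numpy 2.4.6, pandas 2.3.3 and matplotlib 3.10.9 were used.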

Additional observations from a re-analysis of the deposited data

How the results depend on the processing

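The number of detected members was 497 with both libraries required, 594 without replicate 1 and 577 without replicate 2. In the second quantification it was 509, on a TPM scale that differs from that of the gene tables. It fell to 325 when the lower bound of the TPM interval had to reach 1 TPM and to 260 when only members with at least 50% own windows were kept, both alternatives chosen after seeing the data. The members' share of counts, 0.347%, was 0.315% in the second quantification, 0.438% with transcribed processed pseudogenes included and 0.926% as a share of TPM, and 0.344% to 0.351% with 1 replicate left out. The 17 members apart between libraries became 4 at 5 CPM, 9 in the second quantification and 1264 of 2543 with no filter on low counts, where 20.2% of all genes were apart. The coefficient of variation, 17.6%, was 12.3% in the second quantification, 17.63% with DESeq2 size factors, 30.7% with DESeq2 dispersions and 32.3% with no filter. The 285 members apart between quantifications became 134 at 5 CPM, 302 without replicate 1 and 303 without replicate 2. An aligned coding gene was found for 4640 members at 90% identity and 2466 at 95%. Detected members on the strand of a host fell from 132 to 66 at 2 TPM, and with 1 replicate left out they were 162 to 180. Those on the opposite strand were 75 to 78 and those in neither 336 to 340. Of 59 values of single members recomputed from the second quantification, 56 moved by more than the spread between libraries. Nearly all were TPM values, so the difference of TPM scale is part of these moves and the counts need not have changed. Gm6548 moved from 24.4 to 44.0 TPM with 554 and 600 counts in the gene tables and 560 and 599 in the second. Gm14150 moved in TPM and in counts, from 98.7 to 1.82 TPM. No paired analysis was possible because there was 1 group. Depth limits a member at 0 counts to at most 3 counts, counting error only. That limit leaves out the division of reads between genes. Gm11847, at 0 counts in replicate 1, had a posterior SD of 65.1 counts.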
